A study of Mus musculus with 24 samples.

Results

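The genes described here are the translation initiation and elongation factors of mouse dorsal root ganglia. They were chosen by name: every symbol of the deposited count tables that begins with Eif1 to Eif6 or with Eef, without pseudogene symbols. That gave 65 of 24421 symbols in the RNA-seq table, and the same 65 in the MeRIP-seq table. Of these, 61 passed the low-count filter in RNA-seq and 62 in MeRIP-seq. Eif3j1, Eif3j2 and Eif4e1b had no count in any RNA-seq library and Eif4ebp2 had between 0 and 7, so those 4 genes were not tested for a change of expression.

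All tissue was the L4/5 dorsal root ganglion, the cluster of sensory neuron cell bodies whose axons form much of the sciatic nerve, taken from C57BL/6 mice. RNA-seq compared 4 groups of 3 libraries: wild type naive, wild type SNLD1, Mettl14cKO naive and Mettl14cKO SNLD1. SNLD1 is day 1 after a sciatic nerve lesion, and Mettl14cKO is a conditional deletion of Mettl14, a subunit of the enzyme that writes the RNA mark m6A. The labels record a sham operation or a nerve crush as the treatment of every library and call the uninjured groups naive. MeRIP-seq (sequencing of RNA pulled down with an m6A antibody, the IP, beside RNA before the pull-down, the input) was done on wild-type tissue only, with 3 IP and 2 input libraries in each of naive and SNLD1. The miCLIP libraries, which place m6A at single bases, were 1 naive and 1 lesioned (SNL, with no day in its title), also wild type. The driver of the deletion, the age of the mice and whether replicates were separate animals are not given in the labels, so the spread behind each p-value is that between these libraries and may be technical.

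Initiation factors bring the initiator tRNA to the small ribosomal subunit, bring that subunit to the capped end of an mRNA, and release it to scan for a start codon. Elongation factors then deliver each further tRNA and move the ribosome along. Kinases that phosphorylate the alpha subunit of eIF2 slow initiation on most mRNAs under stress while favouring a few, among them Atf4, and injured sensory neurons are known for making new protein both in the cell body and in the axon.

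The start of a transcript bears on this group because many mRNAs of the translation machinery begin with a run of pyrimidines, the letters through which the mTOR pathway adjusts their translation. Of the 65 genes, 51 had a promoter in the RefSeq table (build GRCm38.p6), and 10 of the 51 (19.6%) had a C followed by at least 4 of C or T, read on the transcribed strand, beginning at the annotated start or up to 3 bases either side. The share among all 27025 genes of that table was 13.5%. The windows below run from 10 bases before the start to the 20 bases from it, for some of the genes the results describe. The pyrimidine run is in capitals from its first C inside those 3 bases either side.
Eif3b, chr5:140419295-140419324, plus strand: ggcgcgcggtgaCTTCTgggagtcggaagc
Eif2s3x, chrX:94212632-94212661, minus strand: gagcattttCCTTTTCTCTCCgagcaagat
Eif2s3y, chrY:1010585-1010614, plus strand: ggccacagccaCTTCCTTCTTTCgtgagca
Eef1a1, chr9:78481705-78481734, minus strand: ctccgccCTCTTCCCgagggtgggggagaa
Eif4g1, chr16:20672717-20672746, plus strand: gcgcagctccgCCCTCTgcgccggtcacgt
Eif3m, chr2:105017008-105017037, minus strand: cggtcggcgtgtttctggatcggagcgtct
The runs of Eif2s3x and Eif2s3y, a pair of genes for the same subunit on the X and Y chromosomes, were both 12 bases long by this definition, that of Eef1a1 8 and that of Eif3b 5. Unbroken C or T letters reached further upstream in Eif2s3x, for 16 bases in all, and in Eef1a1, for 10. Eif3m, described with the MeRIP-seq results, had none by this definition, and neither did Eef2, Eif2ak3, Eif4e or Eif5a2, whose windows are not printed. The Eef2 window ended in a run of C and T that began further downstream than the 3 bases allowed. Having none thus depends on the annotated start. Most windows printed hold a run, unlike most of the 51 genes. A run of such letters is a description of the annotated start, and translation itself was not measured in these libraries.

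RNA-seq totals ran from 5707837 to 12639160 counts per library and MeRIP-seq totals from 846785 to 19653733. Mettl14 itself read between 19.4 and 24.1 CPM (counts scaled to a library total of 1000000) in the 6 wild-type libraries and between 14.2 and 18.9 in the 6 Mettl14cKO libraries (log2 fold change -0.46 averaged over conditions, edgeR adjusted p = 0.0450), and the labels do not say which part of the gene is deleted. Sensory neuron markers summed to 8981 to 9953 CPM in wild type naive, 8315 to 9773 in wild type SNLD1, 6864 to 9048 in Mettl14cKO naive and 7365 to 9419 in Mettl14cKO SNLD1, so genes that define the labelled tissue were present. Among them Nefh read 553 to 753 CPM in the 6 wild-type and 300 to 419 in the 6 Mettl14cKO libraries. Over all libraries the other neuron markers overlapped between genotypes. The part of the Nefh difference in the genotype values below was not tested. Neutrophil markers summed to 1334 CPM in wild type naive replicate 2 and 1555 CPM in wild type SNLD1 replicate 2, against 153 to 697 CPM in the other 10 libraries. Fibroblast markers summed to 1732 to 1961 and 1711 to 2175 CPM in the naive and injured wild-type libraries, and to 1972 to 3402 and 2609.8 to 4267 CPM in those of Mettl14cKO. Satellite glia markers summed to 2569 to 3689 CPM in wild type naive and 2087 to 3438 in Mettl14cKO naive, and to 2370.4 to 3809.8 CPM in wild type SNLD1 against 1929.7 to 2016 in Mettl14cKO SNLD1. The injured genotypes thus did not overlap in fibroblast or satellite glia markers, which bears on each genotype value in SNLD1 ganglia below. In ganglia taken whole, fewer cells of a type and less RNA per cell cannot be told apart.

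The 65 genes took between 1.12% and 1.27% of all counts in every RNA-seq library. Eif4a2, an RNA helicase of the cap complex, held 21.0% of their counts, and Eef1a1, which delivers tRNAs to the ribosome, held 12.5%. Eif1a, Eif4e and Eif4g2 came next with 4.44%, 3.96% and 3.64%. These shares of counts follow transcript length as well as abundance.

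Nerve injury in wild-type ganglia raised 1 of the 61 tested factors, Eif3b, a scaffold subunit of the eIF3 complex that holds the small ribosomal subunit ready for mRNA. Eif3b read 37.4, 34.2 and 41.5 CPM in the wild type naive libraries and 67.6, 64.9 and 69.7 CPM in the wild type SNLD1 libraries. Every injured wild-type library lay well above every naive one. Eif3b rose 1.78-fold (log2 fold change 0.83, SE 0.158; 37.7 ± 3.65 against 67.4 ± 2.42 CPM, SD, n = 3 each; edgeR quasi-likelihood test, Benjamini-Hochberg adjusted p = 0.0104). The gene lies at chr5:140419305-140443358 on the plus strand (GRCm38.p6). Over all 13291 tested genes, 1.02% were called in this comparison and 0.948% were called higher, so 1 factor of 61 is near the background share. The 3 factors at an unadjusted p under 0.05 compare with 7.34% of all genes.

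In Mettl14cKO ganglia Eif3b read 33.2, 43.8 and 39.1 CPM in the naive libraries and 41.6, 50.3 and 40.7 CPM after injury. Those ranges overlapped, and all 3 injured knockout libraries lay below all 3 injured wild-type ones. The knockout injury difference was 0.19 on the log2 scale (SE 0.160, edgeR adjusted p = 0.716). Between the injured groups the Mettl14cKO level was 1.52-fold lower in the fit (log2 fold change -0.61, SE 0.158), which missed the threshold (edgeR adjusted p = 0.0622). The satellite glia sum was lower and the fibroblast sum, mostly Dcn, higher in the same injured knockout libraries. Their part in the value was not tested. The test of the difference between both injury effects gave -0.64 (SE 0.224) with an unadjusted p of 0.0106 and an edgeR adjusted p of 0.998, so the injury effect was not shown to differ between genotypes. The wild-type libraries numbered 2, those with high neutrophil markers, were the lowest of their groups in Eif3b. The wild-type injury effect missed the threshold without wild type naive replicate 1 (edgeR adjusted p = 0.0691) or wild type SNLD1 replicate 3 (adjusted p = 0.0753).

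**Figure D1:**
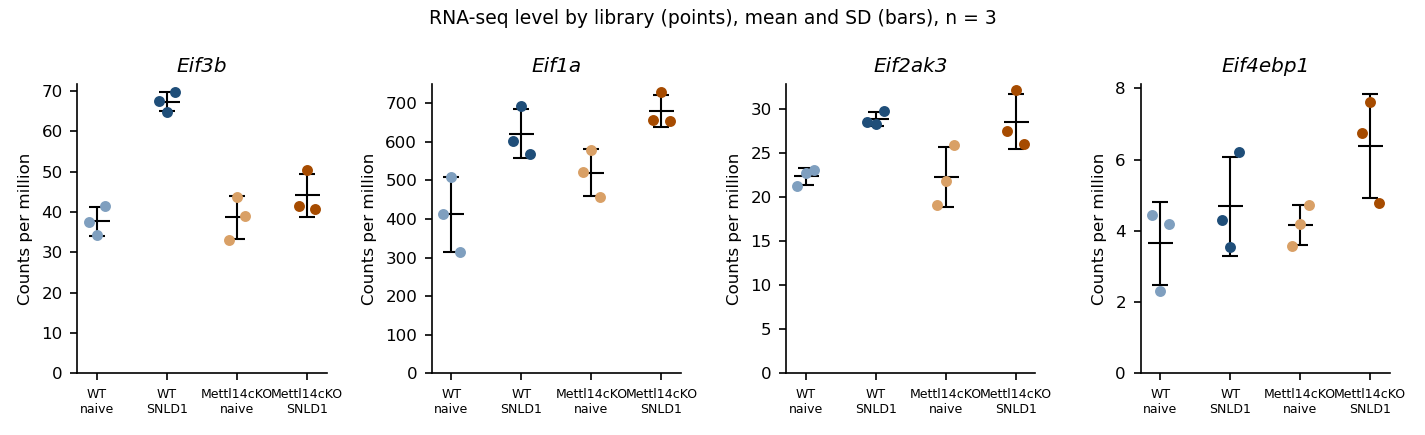
RNA-seq level in CPM (vertical axis, from 0) of Eif3b, Eif1a, Eif2ak3 and Eif4ebp1 in each of the 12 libraries (points) by group, with the group mean and SD (bars, n = 3). The wild type SNLD1 points of Eif3b sit at 64.9 to 69.7, above the points of the other 3 groups.

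The MeRIP-seq libraries gave a further reading of Eif3b in wild type. In the IP libraries numbered 1, 2 and 3, Eif3b was 1.62, 1.56 and 1.86 times as high in SNLD1 as in the naive library of the same number. IP libraries of equal number deviated together across conditions (correlations of 0.753, 0.549 and 0.807). In the inputs numbered 1 and 2 it read 33.6 and 82.1 CPM naive against 49.9 and 262 CPM after injury. All 5 injured libraries thus lay above the naive library of the same kind and number, and no test called Eif3b. Within IP the log2 difference was 0.76 (SE 0.798, edgeR unadjusted p = 0.355, adjusted p = 0.99999). With the number as a block it was 0.74 within IP (SE 0.321, edgeR unadjusted p = 0.0392, adjusted p = 0.978) and 1.16 within input (SE 0.409, unadjusted p = 0.0155, adjusted p = 0.941).

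None of the other 11 tested eIF3 subunits passed in wild-type injury. Of all 12, 9 lay above 0 in wild type and 10 in Mettl14cKO, with medians of 0.14 and 0.19 on the log2 scale. The lowest in wild type was Eif3f at -0.24. The summed eIF3 level was 1593 to 1965 CPM in wild type naive, 1844 to 2043 in wild type SNLD1, 1763 to 2059.9 in Mettl14cKO naive and 1961 to 2469 in Mettl14cKO SNLD1. Each injured range overlapped the naive range of its genotype.

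Among the factors that select the start codon and join the subunits, Eif1a was the other gene to pass a test. Eif1a encodes a form of the factor that steadies the scanning ribosome. It read 414, 508 and 315 CPM in wild type naive and 602, 692 and 569 CPM in wild type SNLD1. In Mettl14cKO it read 522, 579 and 458 CPM naive and 657, 728 and 653 CPM after injury. In both genotypes the injured libraries lay above the naive ones without overlap. Taken singly neither effect passed (log2 fold change 0.59 in wild type, edgeR adjusted p = 0.150, and 0.39 in Mettl14cKO, adjusted p = 0.416). Averaged over genotypes, Eif1a rose 1.40-fold (log2 fold change 0.49, SE 0.120, edgeR adjusted p = 0.0327). With 1 library left out it passed only where that was wild type naive replicate 2, Mettl14cKO naive replicate 2 or Mettl14cKO SNLD1 replicate 3, and the adjusted p was otherwise 0.0526 to 0.109.

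Averaged over genotypes, 2 of 61 factors rose and none fell, Eif1a and Eif3b (0.51, SE 0.112, edgeR adjusted p = 0.0165), against 2.56% of all genes called in either direction and 2.02% called higher. At an unadjusted p under 0.05 there were 6 factors, against 13% of all genes. Without wild type SNLD1 replicate 3 neither gene passed. Eif1, a partner of Eif1a in scanning, read 62.2 to 84.4 CPM in wild type naive and 84.6 to 89.9 in wild type SNLD1, and did not pass. Eif5, the protein that triggers GTP hydrolysis on eIF2, read 229.9 to 361 CPM in wild type naive and 279 to 300.1 CPM after injury, and did not pass. The 8 start codon and joining factors summed to 1138 to 1345 CPM in wild type naive and 1455 to 1508 in wild type SNLD1, and to 1305 to 1367 and 1449 to 1652 CPM in the naive and injured Mettl14cKO libraries. Those ranges did not overlap in either genotype, and Eif1a is a large part of the sum. Without Eif1a, the sum of the other factors overlapped between naive and injured libraries in both genotypes. The separation of the sums is thus that of Eif1a and not a rise of the group.

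The eIF2 complex carries the initiator tRNA, and none of the 6 tested genes of eIF2 and its relatives passed the edgeR test in any RNA-seq comparison. Eif2s1, the alpha subunit that the stress kinases phosphorylate, was 360.3 ± 50.8 CPM in wild type naive and 399 ± 46.8 CPM in wild type SNLD1 (SD, n = 3 each). Its Mettl14cKO groups were 319 ± 45.7 and 329 ± 20.3 CPM. The injured knockout libraries lay just below the injured wild-type ones without overlap (log2 fold change -0.28, edgeR adjusted p = 0.446). The 5 genes of eIF2B, which recharges eIF2 with GTP, had a median injury difference of -0.03 in wild type and 0.04 in Mettl14cKO.

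The gamma subunit of eIF2 came from a pair of genes, and Eif2s3y varied between libraries of the same group. Eif2s3y and Eif2s3x, in that order, read 89.1 and 106 CPM in wild type naive 1, 79.0 and 140.2 in wild type naive 2, and 0 and 180.2 in wild type naive 3. They read 0 and 201 CPM in wild type SNLD1 1, 90.9 and 132 in wild type SNLD1 2, and 93.2 and 114 in wild type SNLD1 3. Each wild-type group thus had 1 library with no Eif2s3y count. In Mettl14cKO naive 1, 2 and 3 the pair read 0 and 163, then 89.4 and 148, then 0 and 223 CPM. In Mettl14cKO SNLD1 1, 2 and 3 it read 33.7 and 175, then 88.2 and 96.7, then 0 and 249 CPM.

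Eif2s3y thus had 0 counts in 5 of 12 libraries, where 0 allows at most 0.228 to 0.460 CPM (3 counts, counting error only), and an intermediate level in Mettl14cKO SNLD1 1. The sum of the pair stayed between 163 and 249 CPM. The injury fits of Eif2s3y had an SE of 1.52 in wild type and 1.58 in Mettl14cKO on the log2 scale, against 0.286 and 0.286 for Eif2s3x. The genotype difference of Eif2s3y was -0.94 in naive ganglia (SE 1.57, edgeR adjusted p = 0.971) and -0.77 averaged over conditions (SE 1.10, adjusted p = 0.779). The same edgeR test without the low-count filter gave nearly the same differences with far smaller errors, and called Eif2s3y lower in Mettl14cKO in naive ganglia (-0.93, SE 0.198, adjusted p = 0.000758) and averaged over conditions (-0.77, SE 0.139, adjusted p = 5.56e-06). The naive genotypes overlapped, with 1 wild-type and 2 Mettl14cKO libraries of 3 at 0. The Y-linked genes Ddx3y, Kdm5d and Uty together had 0 or 1 counts in the 5 libraries without Eif2s3y. They had 543 in Mettl14cKO SNLD1 1 and 1604 to 3298 in the rest. A genotype difference of Eif2s3y thus cannot be told apart from the uneven split of libraries with and without Y-linked reads.

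**Figure D2:**
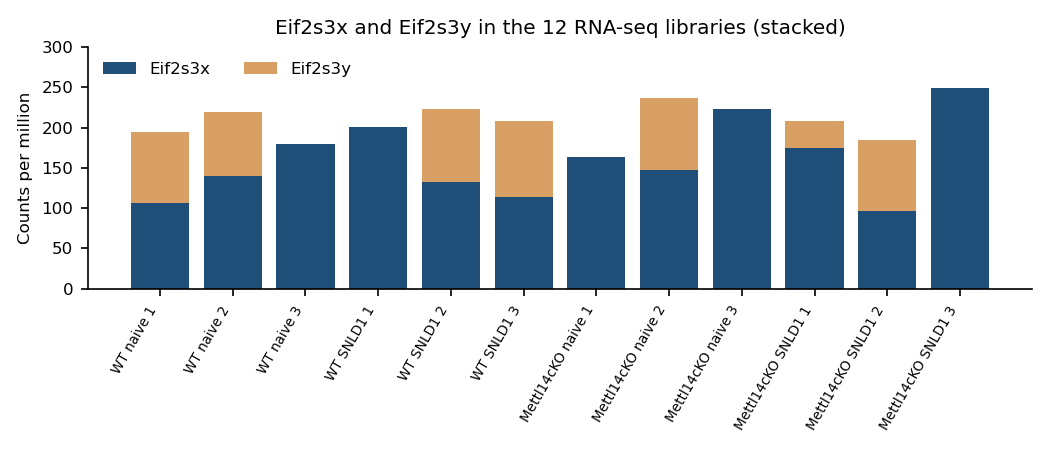
Levels of Eif2s3x and Eif2s3y in CPM (vertical axis, from 0), stacked for each of the 12 RNA-seq libraries. The Eif2s3y part is absent in 5 libraries and short (33.7) in Mettl14cKO SNLD1 1, while the stacked height stays between 163 and 249.

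The 4 eIF2 kinases did not pass in any RNA-seq comparison. Eif2ak3, the kinase of the endoplasmic reticulum known as PERK, read 21.3, 22.8 and 23.1 CPM in wild type naive and 28.5, 28.4 and 29.8 CPM in wild type SNLD1. In Mettl14cKO it read 19.1, 21.8 and 25.9 CPM naive and 27.5, 32.1 and 26.1 CPM after injury. The injured libraries lay above the naive ones in both genotypes, narrowly so in the knockout. The log2 differences were 0.37 and 0.36, and their average missed the threshold (0.36, SE 0.117, edgeR adjusted p = 0.135).

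Eif2ak2, the kinase activated by double-stranded RNA, had an injury difference of 0.35 averaged over genotypes (SE 0.157, edgeR adjusted p = 0.353). Eif2ak1, the heme-regulated kinase, lay at 13.2 to 21.3 CPM over all 12 libraries. Eif2ak4, which senses uncharged tRNA, was 5.08 ± 1.76 CPM in Mettl14cKO naive and 3.04 ± 0.658 CPM in Mettl14cKO SNLD1 (SD, n = 3 each), with overlapping libraries and an edgeR adjusted p of 0.466.

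Known targets of ATF4, the transcription factor made when eIF2 is phosphorylated, gave 15 tested genes. Averaged over genotypes, 2 of the 15 rose with injury and none fell by the edgeR test, beside 2.02% of all genes called higher. Of the 15, 9 lay above 0, beside 48.8% of all genes, and 6 below it, the lowest Ddit4, an inhibitor of mTOR signalling, at -0.78. Ddit4 read only 0.124 to 2.09 CPM over all RNA-seq libraries, and its naive and injured libraries overlapped in both genotypes. The median of the 15 was 0.33, beside -0.01 over all genes. The 2 called were Atf4 itself, which the list holds beside its targets, and Ppp1r15a, which encodes the subunit that directs a phosphatase to eIF2. Atf4 read 42.7 to 60.2 CPM in wild type naive, 66.9 to 88.8 in wild type SNLD1, 65.6 to 72.1 in Mettl14cKO naive and 91.3 to 122 in Mettl14cKO SNLD1. It rose 1.56-fold (log2 fold change 0.65, SE 0.120, edgeR adjusted p = 0.00497). Ppp1r15a rose 1.88-fold (log2 fold change 0.91, SE 0.181, edgeR adjusted p = 0.00791). Neither passed within a single genotype.

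With loss of Mettl14, 13 of the 15 ATF4 targets lay above 0 in naive and 15 in SNLD1 ganglia, with medians of 0.39 and 0.31 beside 0.00 over all genes in each. Of all genes, 50.6% and 50.5% lay above 0. In SNLD1 ganglia 1 of them, the stress protein gene Nupr1, rose by the edgeR test (log2 fold change 1.11, adjusted p = 0.0281), beside 0.948% of all genes called higher. Averaged over conditions Nupr1 (0.79, adjusted p = 0.0158) and Ddit3, the transcription factor CHOP (0.68, adjusted p = 0.00826), rose by that test, beside 2.04%. The fibroblast sum, mostly Dcn, was also higher in both Mettl14cKO groups than in wild type of the same condition. The satellite glia sum was lower in injured Mettl14cKO libraries, as given above. The part of either sum in these genotype values was not tested.

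The cap-binding complex gave no call by the edgeR test in any RNA-seq comparison. Eif4e, which binds the cap, read 427, 578 and 363 CPM in wild type naive and 525, 639.6 and 575 CPM in wild type SNLD1. In Mettl14cKO it read 482, 501 and 421 CPM naive and 439.7, 387 and 483 CPM after injury. The injured knockout libraries lay below every injured wild-type library (log2 fold change -0.41, edgeR adjusted p = 0.265), while the naive groups overlapped. For Eif4e, and for Eif4g2 below, the part of the lower satellite glia sum and higher fibroblast sum of the injured knockout libraries was not tested.

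Eif4g2, a relative of the eIF4G scaffold that acts without the cap-binding protein, read 456, 546 and 459.5 CPM in wild type SNLD1 and 369, 373 and 341 CPM in Mettl14cKO SNLD1. The injured groups did not overlap (log2 fold change -0.43, SE 0.137, edgeR adjusted p = 0.129). In naive ganglia Eif4g2 was 457 ± 40.1 CPM in wild type and 435 ± 13.8 CPM in Mettl14cKO (SD, n = 3 each). With the DESeq2 Wald test on the same counts, Eif4g2 and Eif3b both passed as lower in injured Mettl14cKO ganglia (DESeq2 adjusted p = 0.0402 and 0.0171). The share of all genes that DESeq2 called is not given here, so these calls say nothing about the factors as a group.

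Eif4g1, the main scaffold of the cap complex, read 2.17 to 6.59 CPM over the 12 libraries. Eif4a2 was 2368 ± 476 CPM in wild type naive, 2473 ± 242 in wild type SNLD1, 2750.02 ± 287 in Mettl14cKO naive and 2836 ± 222 in Mettl14cKO SNLD1 (SD, n = 3 each). Eif4a1, its paralog, read 43.3 to 52.5 CPM in wild type naive and 58.7 to 72.1 CPM in Mettl14cKO naive. These did not overlap and did not pass (log2 fold change 0.42, edgeR adjusted p = 0.609). Eif4b, which stimulates the helicase, read 73.9 to 74.4 CPM in wild type naive and 81.9 to 94.6 CPM in Mettl14cKO naive, also without overlap (0.28, edgeR adjusted p = 0.670).

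The inhibitors that hold Eif4e away from the scaffold did not pass in any RNA-seq comparison. Eif4ebp1 read 4.45, 2.32 and 4.18 CPM in wild type naive and 4.29, 3.55 and 6.22 in wild type SNLD1. In Mettl14cKO it read 3.59, 4.19 and 4.72 CPM naive and 6.75, 7.61 and 4.77 CPM after injury. The knockout groups were narrowly apart and the wild-type groups overlapped. Its injury difference averaged over genotypes was 0.47 (SE 0.222, edgeR adjusted p = 0.381).

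The elongation factors gave no call in any RNA-seq comparison. Eef1a1 was 1363 ± 147 CPM in wild type naive, 1517 ± 71.9 in wild type SNLD1, 1526 ± 56.3 in Mettl14cKO naive and 1755 ± 152 in Mettl14cKO SNLD1. Eef2, which moves the ribosome by a codon, was 225 ± 50.6, 206 ± 23.7, 215 ± 32.5 and 236 ± 15.6 CPM in the same order (SD, n = 3 each). Eef2k, the kinase that inhibits Eef2, read 4.88 to 8.74 CPM over all 12 libraries. Eef1a2, the form of Eef1a1 found in mature neurons and muscle, read 5.07 to 10.7 CPM.

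Eif5a and Eif5a2, factors that help the ribosome through difficult peptide bonds, had injury differences of 0.43 and -0.31 in Mettl14cKO, and neither passed (edgeR adjusted p = 0.520 and 0.617). Eif5a read 307, 367 and 393 CPM in Mettl14cKO naive and 488, 509 and 439 CPM in Mettl14cKO SNLD1 without overlap. In wild type it read 473, 302 and 511 CPM naive and 579, 300.3 and 543 CPM after injury. The wild-type libraries numbered 2, those with high neutrophil markers, were the lowest of their groups, and the part of other cells in this was not tested.

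**Figure D3:**
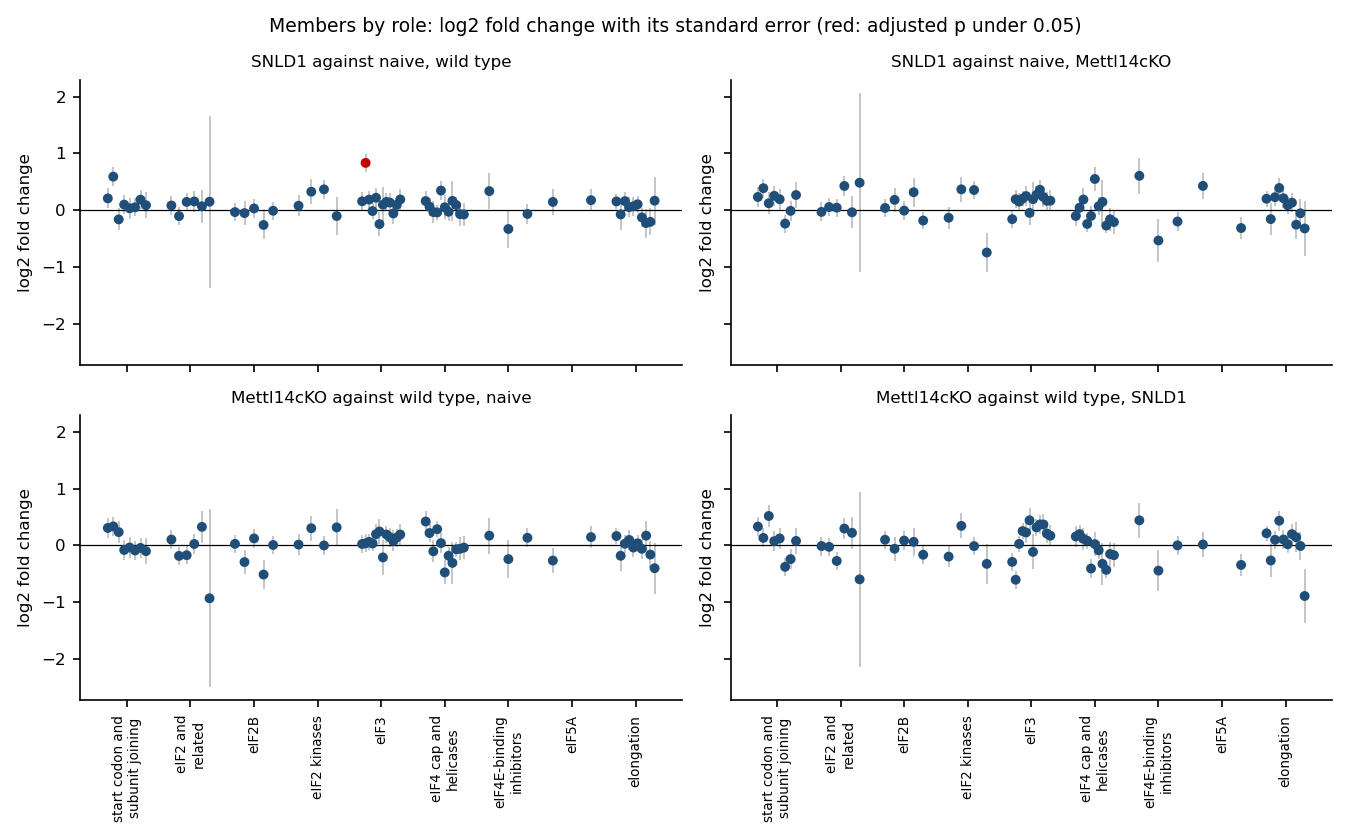
log2 fold change (vertical axis) of each of the 61 tested factors by role group (horizontal axis) in 4 RNA-seq comparisons, with its standard error as a line. Eif3b after injury in wild type is the red point at 0.83, the only factor with an adjusted p under 0.05 in these 4 panels.

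Injury in Mettl14cKO called none of the 61 factors by the edgeR test, beside 0.685% of all genes, with 6 factors at an unadjusted p under 0.05 (10.6% of all genes) and none called by DESeq2. Loss of Mettl14 in naive ganglia called none by edgeR (background 0.286%), with 2 at an unadjusted p under 0.05 (7.6%) and none by DESeq2. In SNLD1 ganglia it called none by edgeR (background 1.46%), with 8 at an unadjusted p under 0.05 (14.4%) and 2 by DESeq2, named above. All background shares in this paragraph are those of edgeR and are not a measure for the DESeq2 counts. Averaged over conditions the genotype called none by edgeR (background 3.33%), with 7 at an unadjusted p under 0.05 (17%) and none by DESeq2. The difference of injury effects called none of 61 by edgeR, beside 0% of all genes, with 1 factor, Eif3b, at an unadjusted p under 0.05 (3.7%) and none by DESeq2.

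Without overlap between the groups of 3 libraries, wild-type injury had 4 factors higher (Eif1, Eif1a, Eif2ak3 and Eif3b; 6.08% of all genes) and 1 lower (Eif2d; 4.95%). In Mettl14cKO injury 10 of 61 were higher without overlap (Eef1a1, Eif1a, Eif1b, Eif2ak2, Eif2ak3, Eif2b4, Eif3d, Eif3h, Eif4ebp1 and Eif5a), beside 8.32% of all genes, and 5 were lower (Eif3a, Eif4b, Eif4g2, Eif4h and Eif5), beside 9.38%. Between genotypes in naive ganglia 4 were higher (Eif1, Eif3h, Eif4a1 and Eif4b; 6.11% of all genes) and 1 lower (Eif2d; 4.65%) in Mettl14cKO. In SNLD1 ganglia 5 were higher (Eef1a1, Eef2, Eif1ad, Eif3d and Eif3f; 9.66%) and 7 lower (Eif2s1, Eif3a, Eif3b, Eif4e, Eif4g2, Eif5 and Eif5b; 10.3%).

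With injury, 40 of 61 factors lay above 0 in wild type, beside 47.1% of all genes, with a median of 0.08 against -0.01. In Mettl14cKO 38 lay above 0, beside 51.1%, with a median of 0.13 against 0.01. With loss of Mettl14, 35 lay above 0 in naive ganglia (all genes 50.6%) and 35 in SNLD1 ganglia (all genes 50.5%), with medians of 0.02 and 0.06. Factors were tested one by one, and the group as a whole was not. The injury and genotype comparisons share libraries, so their counts are not independent of each other.

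Of 46 other genes of the translation machinery, among them poly(A)-binding proteins, mTOR pathway members, release factors and rescue factors, 45 were tested. By the edgeR test none passed with injury in either genotype or between naive genotypes, and their medians were between -0.03 and 0.03. Dhx29, a helicase that helps the ribosome scan, read 16.1 to 17.5 CPM in wild type SNLD1 and 8.88 to 11.1 CPM in Mettl14cKO SNLD1. It fell there (log2 fold change -0.80, SE 0.191, edgeR adjusted p = 0.0442). No other of the 45 was called in that comparison, beside 1.46% of all genes. Averaged over conditions, loss of Mettl14 came with a fall of Dhx29 (-0.55, edgeR adjusted p = 0.0290) and a rise of Pelo, a factor that rescues stalled ribosomes (0.81, adjusted p = 0.0301). No other of the 45 was called there, beside 3.33% of all genes. In both comparisons the calls are near the background share.

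In MeRIP-seq the libraries labelled IP were not alike, which bears on every value that follows. Across genes, on the log2 CPM scale, the IP libraries numbered 3 had correlations of 0.830 to 0.930 with the 4 inputs and of 0.671 to 0.778 with the IP libraries of other numbers. The IP libraries numbered 1 and 2 had correlations of 0.598 to 0.745 with the inputs. By this measure the libraries labelled IP and numbered 3 were nearer to inputs than to the other pull-downs. Whether they are labelled correctly cannot be told from these files, so each value with all libraries holds only if they are; they are called IP 3 below, after their label. The smallest libraries were naive IP 2 with 846785 counts, SNLD1 input 1 with 927807 and SNLD1 IP 2 with 1534778. Enrichment, the IP level over the input level, is given with and without the pair numbered 3. It is relative to each library's total, so a negative value is a share below that of mRNA in general and not an absence of m6A.

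With all 10 libraries, the edgeR test called no factor in IP over input in naive (background 0%) or SNLD1 ganglia (0% of all 14705 genes). At an unadjusted p under 0.05 there were 2 factors in naive (6.22% of all genes) and 3 in SNLD1 (4.13%), and DESeq2 called none. The median of the 62 factors was -0.53 in naive and -0.66 in SNLD1 on the log2 scale, beside 0.07 and 0.10 over all genes. In each condition 21 of the 62 lay above 0, beside 51.8% of all genes in naive and 52.7% in SNLD1. The injury contrasts called no factor by edgeR or DESeq2 and none at an unadjusted p under 0.05 without a block. For those contrasts the adjusted background was 0% throughout, and the unadjusted one was 0.843% within IP, 0.857% within input and 0.204% for the change of enrichment. With the library number as a block within IP and within input, the unadjusted count was 4 factors within IP (Eif1, Eif2a, Eif3b and Eif4e2; 3.78% of all genes), 1 within input (Eif3b; 4.52%) and none for the change of enrichment (0.809%), with no factor at an adjusted p under 0.05.

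Library by library, the median log2 enrichment of the 62 factors was -1.33 and -1.67 in naive IP 1 and 2, and -1.21 and -1.53 in SNLD1 IP 1 and 2. Over all genes it was -0.46 to 0.24 in those 4. In IP 3 the factors' median was 0.10 in naive and 0.29 in SNLD1. The IP libraries numbered 1 and 2 thus showed most factors low in the pull-down, and those numbered 3 did not. In all 4 of the former, 36 of 62 factors lay below their input, against 29.4% of all genes, and 8 lay above it, against 22.9%.

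**Figure D4:**
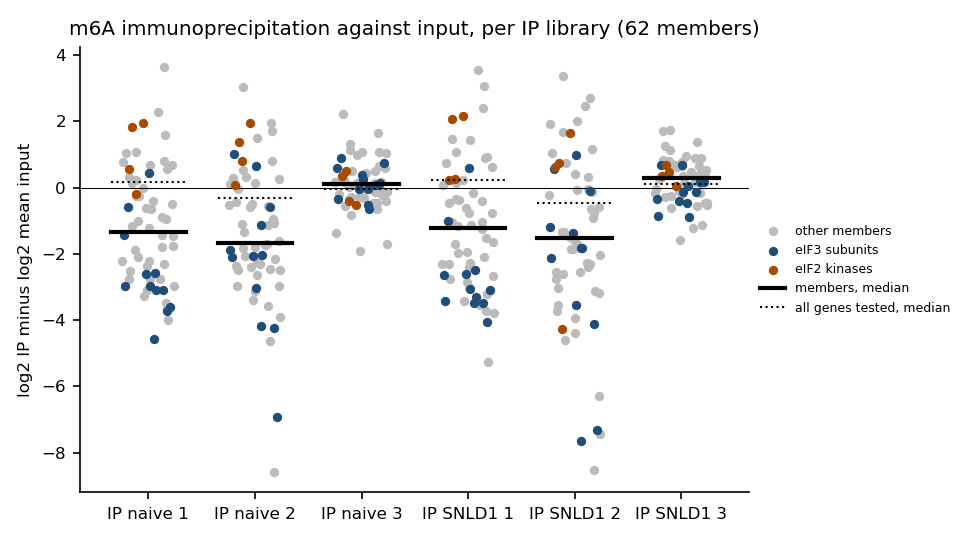
log2 IP level minus log2 mean input level (vertical axis) of 62 factors in each of 6 IP libraries, with eIF3 subunits in blue, eIF2 kinases in orange and the medians of the factors and of all genes as lines. The factors' median lies between -1.67 and -1.21 in IP libraries 1 and 2 and at 0.10 and 0.29 in IP libraries 3.

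Without the pair numbered 3, the edgeR test called 2 factors lower in naive IP, Eif3e and Eif3m, beside 1.78% of all genes called (1.77% lower). In SNLD1 it called 2 lower, Eef1a1 and Eif3m, beside 0.806%. At an unadjusted p under 0.05 there were 25 factors in each condition, 24 of them lower in naive and 25 in SNLD1, beside 15.9% of all genes in each and 12% and 11.9% lower. This choice of libraries was made after the values were seen, and these 3 genes are named for that reason. A fit that keeps all 10 libraries and takes the library number as a block within IP and within input called 1 factor higher and 26 lower in naive (all genes 4.21% and 13.1%). In SNLD1 it called 2 higher and 26 lower (all genes 3.43% and 11.7%). That block removes the differences between numbers from the error. For IP over input, those differences are the spread between replicates that the comparison should be judged against. Its p-values for IP over input, here and for the genes below, leave that spread out and cannot carry a call.

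Eif3m, a peripheral eIF3 subunit whose promoter window is printed above, read 295 and 251 CPM in the naive inputs against 20.4, 14.1 and 301 CPM in naive IP 1, 2 and 3. After injury its inputs read 268.7 and 217 CPM and its IP libraries 14.3, 13.6 and 269.8 CPM. The levels in IP 1 and 2 were far below the inputs and those in IP 3 just above them. Without IP 3, Eif3m was 15.6-fold lower in naive IP than in input (log2 fold change -3.97, SE 0.782, edgeR adjusted p = 0.0233) and 17.3-fold lower in SNLD1 (adjusted p = 0.0427). With all libraries the log2 values were -1.28 and -1.29 (edgeR adjusted p = 0.775 and 0.800). With all libraries and the block within IP and within input, Eif3m was called in both (-2.60 and -2.69, edgeR adjusted p = 0.000475 and 0.000639).

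Eef1a1 read 1860.5 and 1113 CPM in the naive inputs and 222, 167 and 3027 CPM in naive IP 1, 2 and 3. In SNLD1 it read 1613 and 1715 CPM in the inputs and 209, 108 and 2834 CPM in the IP libraries. IP 1 and 2 were again far below the inputs, and IP 3 was above them. Without IP 3 it was 10.5-fold lower in SNLD1 IP (log2 fold change -3.39, edgeR adjusted p = 0.0469), and in naive IP the value was -2.93 (adjusted p = 0.0518). With all libraries the values were -0.38 in naive and -0.66 in SNLD1 (edgeR adjusted p = 0.935 and 0.884). With the block they were -1.59 and -2.06, called in both (edgeR adjusted p = 0.00351 and 0.00135) although IP 3 lay above both inputs.

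Eif3e, another eIF3 subunit, read 426 and 342 CPM in the naive inputs and 15.9, 20.7 and 262 CPM in naive IP 1, 2 and 3. All 3 lay below both inputs, IP 3 by much less than the other two. Eif3e was 21.1-fold lower in naive IP without IP 3 (-4.40, SE 1.06, edgeR adjusted p = 0.0476). With all libraries the value was -1.94, or 3.84-fold lower (SE 1.36, edgeR adjusted p = 0.726), and with the block -3.14 (SE 0.597, adjusted p = 0.00418).

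By role, the eIF3 subunits had medians of -2.97 and -2.04 in naive IP 1 and 2 and of -3.07 and -1.82 in SNLD1 IP 1 and 2. In IP 3 those medians were 0.12 in naive and -0.12 in SNLD1. Of the 12 tested, 10 lay below input in all 4 libraries numbered 1 and 2, where 29.4% of all genes did. Eif3a, the largest subunit, lay above input in all 4, and Eif3b lay on both sides. The eIF2 kinases had medians of 1.18 and 1.09 in naive and 1.17 and 0.68 in SNLD1, and in IP 3 of -0.03 in naive and 0.40 in SNLD1. Of the 4 kinases, 3 (Eif2ak1, Eif2ak2 and Eif2ak3) lay above input in all 4 libraries numbered 1 and 2, where 22.9% of all genes did.

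Eif2ak3 read 16.4 and 33.7 CPM in the naive inputs and 83.5, 61.3 and 33.5 CPM in naive IP 1, 2 and 3. Eif2ak2 read 51.0 and 15.2 CPM in the naive inputs and 108, 107 and 19.4 CPM in the IP libraries. For both kinases IP 1 and 2 stood above both inputs and IP 3 lay within the inputs' range. Neither was called with all libraries (log2 fold change 1.25 for Eif2ak3 and 1.24 for Eif2ak2, edgeR adjusted p = 0.716 and 0.738) or without IP 3 (1.53 and 1.70, adjusted p = 0.400 and 0.345). With the block, Eif2ak2 was called higher in SNLD1 IP (1.29, edgeR adjusted p = 0.0486, against 0.791 without it) and neither kinase was called in naive.

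Eif4g1 had the highest naive enrichment of the 62 with all libraries, at 2.66 on the log2 scale (SE 1.18, edgeR adjusted p = 0.710). It read 5.15 and 10.3 CPM in the naive inputs and 93.8, 29.2 and 23.7 CPM in the naive IP libraries, all 3 above both inputs. In SNLD1 the inputs read 7.13 and 24.7 CPM and the IP libraries 113, 8.49 and 16.8 CPM, which overlapped. With the block within IP and within input, Eif4g1 was called higher in naive IP (2.47, SE 0.563, edgeR adjusted p = 0.0111) and not in SNLD1 (0.95, adjusted p = 0.287).

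Eif5a2 had the lowest naive enrichment, at -2.56 (SE 0.862, edgeR adjusted p = 0.710). It read 598 and 254 CPM in the naive inputs and 75.6, 36.8 and 103 CPM in the IP libraries. Unlike Eif3m, it was below both inputs in IP 3 as well. With the block, Eif5a2 was called lower in naive (-2.55, SE 0.398, edgeR adjusted p = 0.00140) and in SNLD1 IP (-1.82, adjusted p = 0.00966).

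The miCLIP lists, with 1 library per condition and hence no replicate check, put at least 1 m6A site in the gene span of 42 of the 65 factors. There were 91 sites in the naive list of 14446 and 131 in the SNL list of 18677, at 194 distinct bases, of which 28 were in both lists. Of the 61 factors tested in RNA-seq, 40 held a site (65.6%, 95% exact binomial interval 52.3% to 77.3%). The share over all tested genes was 44.3%, and the factors had more reads, with a median of 92.1 CPM against 14.7. Intervals cover counting error only.

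Eef2 had most sites, 31 distinct bases with 21 in the naive and 23 in the SNL list, and ranked 71 among 6859 genes with a site. Eef1a2 had 21 distinct bases, Eif3a 15, Eif4g1 14 and Eif4b 10. Eif2ak3 and Eif4h had 8 each, and Eef1a1, Eef1d and Eif2b2 had 7 each. Eif3m, Eif2s1, Eif2s3x and Eif2s3y were among the 23 factors with none. Eif3j1, with no count in any RNA-seq library, had 3 sites in the SNL list, over 6 reads in all. Its lack of counts thus need not mean that the transcript was absent. Of the 36 factors below input in all 4 IP libraries numbered 1 and 2, 14 had no miCLIP site. Of the 8 above input in all 4, 1 had none, Eefsec, which delivers the selenocysteine tRNA. Of the 18 on both sides of input, 6 had none, and Eef2, Eef1a2 and Eif4g1 were among these 18. The median number of sites was 1 below input, 1 on both sides and 2 above it. Eif4b, Eif4h and Eef1a1 were among those below. The same split over all genes was not made, so these counts do not show that both methods go together.

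**Figure D5:**
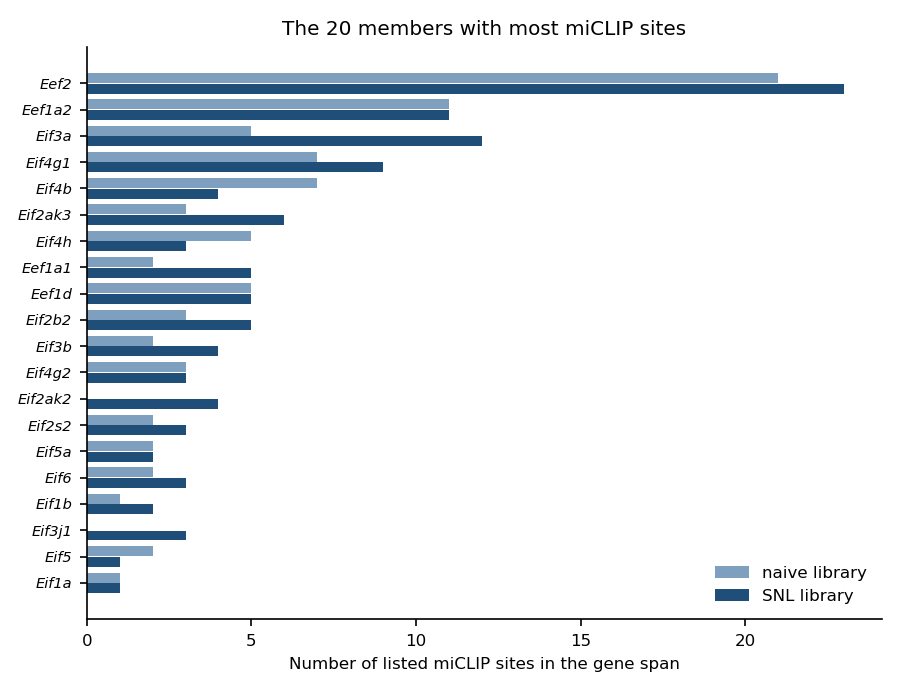
Number of listed miCLIP sites (horizontal axis, from 0) in the gene spans of the 20 factors with most sites, in the naive and the SNL wild-type library. Eef2 leads with 21 and 23 sites, and each bar is 1 library with no replicate.

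Sites are given by the base, the number of mutated reads among the reads over it, and the listed 5 bases with the modified A in the middle. In Eif3b the naive list held GGACC at chr5:140419525, 220 bases from the start of the gene span, with 3 of 6 reads mutated (exact interval 11.8% to 88.2%), and TGACA at chr5:140438325 with 1 of 2. The SNL list held 4 other bases near the end of the span, among them GGACT at chr5:140443192, 166 bases from the end, with 1 of 11 reads mutated. No Eif3b base was in both lists. With 2 to 11 reads a base, a difference between the conditions was not detectable at this depth.

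Listed sites with at least 3 mutated reads numbered 9 and lay in 4 factors, Eef2, Eef1a2, Eif3a and Eif3b. In Eef2 the base chr10:81181363, with TGACC, had 3 of 18 reads mutated in the naive list (16.7%, exact interval 3.58% to 41.4%) and 3 of 25 in the SNL list (exact interval 2.55% to 31.2%). Those intervals overlapped widely. Eef1a2 had TGACC at chr2:181149870 with 5 of 14 reads in the naive list, and Eif3a had AGACC at chr19:60766350 with 3 of 8 in the SNL list.

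Along the gene, the factors' median site fell at 59.8% of the span, beside 76.8% over all genes, and 16.5% of sites fell in the last 10% of the span, beside 33.2%. Gene spans include introns, and exon positions were not used here. GGAC, a frequent core around m6A, made up 31.5% of the factors' listed sites and 38.4% of all. Many of the factors' sites lie in Eef2 and Eef1a2, so sites are not independent readings of 65 genes, and these shares were not tested.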

How the data were processed

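RNA-seq (12 libraries), MeRIP-seq (10) and miCLIP (2) of mouse ganglia were used as deposited. In the count tables the authors deposited, each value is a raw count per gene symbol and library. Each miCLIP list deposited by the authors gives a value of unit other per site, which equalled mutated reads divided by reads over the base. Per the submitters' processing notes, Trimmomatic, STAR, DESeq2 and mm10 were used. How reads were counted, with or without strand, and how sites were called is not given in the sources used here, so overlapping, antisense and near-identical genes could share reads.

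Counts were fitted in R 4.3.3 with edgeR 4.0.16 (filterByExpr, TMM, glmQLFit, glmQLFTest), in 1 model per table with 4 groups. Benjamini-Hochberg adjustment ran over all tested genes, with calls at adjusted p under 0.05. CPM use TMM-adjusted library totals. The procedure was tested on simulated data. Enrichment per IP library is log2 CPM (prior count 2) minus the mean over the inputs of its condition. Sites were assigned to RefSeq gene spans of GRCm38.p6, where all 65 symbols matched, without regard to strand. Exact intervals are Clopper-Pearson at 95%. Named were called genes, the up to 4 of smallest p per direction, the 5 of most counts, core factors, those with most sites and those not tested. Genes and lists were chosen with earlier results of these data known. Protein sequences, part of the plan, were not used here.

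Alternatives were DESeq2 1.42.0 (its size factors, and its Wald test), no low-count filter, the replicate number as a block, the Y-linked share of counts as a covariate, a fit on the compared libraries alone, each library left out, and 3 chosen after seeing the data. Those 3 were leaving out the smallest MeRIP-seq libraries, the block within IP and within input, and leaving out the IP libraries numbered 3. IP libraries of equal number deviated together across conditions (correlations of 0.753, 0.549 and 0.807), so those numbers pair them. Equal numbers did not pair RNA-seq libraries.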

Additional observations from a re-analysis of the deposited data

How the results depend on the processing

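The direction of each named factor held under every alternative run, with 2 exceptions, neither of which passed a test: Eif2b4 in wild-type injury ranged from -0.46 to 0.0498 with single libraries left out (above 0 without wild type naive replicate 3), and Eif2b2 in SNLD1 IP over input went from 1.77 to -0.45 without the 3 smallest MeRIP-seq libraries. With the replicate number as a block, 2 factors in place of 1 were called in wild-type injury, as with a covariate for Y-linked counts, Eif1a beside Eif3b in both. That block called 16 factors in naive and 15 in SNLD1 IP over input, where the fit without a block called none. The block within IP and within input called 27 and 28, with p-values that leave out the spread between IP replicates. In that fit 4.21% and 13.1% of all genes were called higher and lower in naive, and 3.43% and 11.7% in SNLD1. RNA-seq replicate numbers are shared numbers only, since same-numbered wild-type libraries had correlations of deviations of 0.0103, 0.617 and 0.0948. Leaving out single libraries gave 0 to 2 factors in wild-type injury and 0 to 2 in injury averaged over genotypes. Leaving out the IP libraries numbered 3 gave 2 in each condition. Without the low-count filter 1 factor, Eif2s3y, was called lower by genotype in naive ganglia and 1, again Eif2s3y, averaged over conditions, and DESeq2 called 2 by genotype in SNLD1 ganglia. The cause of these moves was not tested. Counts from the replicate block, the covariate, the unfiltered fit, DESeq2 and libraries left out singly lack the share over all genes here. They are thus not results about the factors as a group. Of 42 factors with a miCLIP site, 4 (9 listed sites) had one with at least 3 mutated reads and 2 (16 listed sites) had one covered by at least 20 reads, so most site positions rest on few reads.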
